A study of Arabidopsis thaliana with 96 samples.

Results

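The cassette Ctr//AGe was followed in young flowers of 2 Arabidopsis thaliana hosts, kan1-11 and Col, through the small RNA reads over the enhancer and the promoter of AGAMOUS. The libraries were chosen by their titles and not by any measured value. They were the 12 libraries of set C that belong to kan1-11 Ctr//AGe and Col Ctr//AGe flowers of class rMf and to kan1-11 and Col flowers of class Wt with no cassette named, with 3 replicates in each group. They make up 12 of the 36 libraries of set C and of the 96 libraries of the series. The series title concerns an element that shields regulatory DNA from RNA-directed DNA methylation.

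The flowers with the cassette were kan1-11 plants with Ctr//AGe and class rMf, and Col plants with Ctr//AGe and class rMf. Their hosts were kan1-11 plants of class Wt and Col plants of class Wt, taken here as untransformed. Col is the Columbia accession, and kan1-11 is an allele of KANADI1, a GARP-family transcription factor known for promoting abaxial (lower side) identity in lateral organs. Each replicate was RNA from young flowers of 5 to 10 lines that shared a phenotype, so a library averages over several lines and says nothing of any single line. The labels spell out neither Ctr nor rMf, and they do not say whether the Ctr//AGe cassette carries a copy of the AGAMOUS promoter. Cassette and flower class differed together between Ctr//AGe flowers and their hosts, so these cannot be told apart. The 2 Ctr//AGe groups had the same cassette and class and differed in host.

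AGAMOUS (AG, AT4G18960) encodes the MADS-box transcription factor that specifies stamens and carpels and ends the growth of the floral meristem. Much of its control lies in its long second intron, where LEAFY and WUSCHEL are known to bind. In RNA-directed DNA methylation, small interfering RNAs guide cytosine methylation to DNA of the same sequence. Methylated promoters are often silent, and the small RNA can spread from the sequence that first gave rise to it into its neighbours. Reads over the enhancer therefore report small RNA at the sequence named in the cassette, and reads over the promoter report small RNA at a separate sequence.

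The enhancer region AGe covers chr4:10384147-10387145 (2999 bp, 28.6% GC), and the promoter region AGp covers chr4:10380701-10382800 (2100 bp, 28.6% GC), in TAIR10 coordinates as the file headers give them. AG runs on the + strand from 10382856 to 10388539. AGp ends 56 bp before the annotated start of AG, and AGe begins 1291 bp after that start. In 3 of the 4 annotated transcripts 2835 bp of AGe lie in intron 2 and 74 bp in intron 3, and in the other transcript all of AGe lies in intron 2. Between AGp and AGe stand 1346 bp that were not counted. No gene other than AG is annotated over either region.

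The stretch of AGe below, at chr4:10386584-10386750 on the + strand, is shown because it holds the densest group of matches to floral regulator motifs in the enhancer. The end of AGp next to AG, at chr4:10382641-10382800 on the + strand, is shown as the promoter stretch nearest to the gene. Sequences are from the RefSeq copy of the TAIR10 genome. Capitals mark matches to CCANTG, the core of LEAFY sites, or to TTAATGG, the WUSCHEL core, on either strand.
AGe, 167 bases around its single TTAATGG: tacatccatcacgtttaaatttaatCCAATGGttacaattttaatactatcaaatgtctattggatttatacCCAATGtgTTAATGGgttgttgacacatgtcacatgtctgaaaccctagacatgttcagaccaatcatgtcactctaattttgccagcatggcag
AGp, its last 160 bases before AG: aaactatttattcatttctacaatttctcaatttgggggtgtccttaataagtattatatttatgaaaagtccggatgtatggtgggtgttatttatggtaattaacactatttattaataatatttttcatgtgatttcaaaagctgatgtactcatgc

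AGe held 6 matches to CCANTG, of which 3 lie in the stretch above and a pair of these overlap on opposite strands. Of 6191 windows of chromosome 4 with the length of AGe, 95.7% held at least 1 match and 32.8% held as many as AGe. AGp held 1 match, and 90.6% of 8842 windows of its length held 1 or more. Each region held 1 TTAATGG, which 40.1% of the windows of AGe length and 30.1% of those of AGp length also contained. These matches describe the letters and are not evidence of binding.

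The regions share little sequence. No word of 21 bases in AGe came within 2 mismatches of a word in AGp on either strand, and the closest pair, which is shown here with capitals at the 3 positions that differ, was the only 1 within 3 mismatches.
AGe, chr4:10385008-10385028: caaaCacaTgtGatggtaagt
AGp, chr4:10382503-10382523: caaaGacaAgtAatggtaagt
Of the words of 21 bases, 2967 of 2979 in AGe and 2073 of 2080 in AGp occur once in the genome, and every word of 24 bases in either region does. The reference holds only the chromosomal copy of AGe, and the letters of the transgene copy were not checked. Reads of the transgene copy that match the chromosomal copy fall on the same coordinates, so the copies cannot be told apart. The size and strand of the reads were not used here, since the table holds counts only.

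In units of 1000000 reads, the 12 libraries held 25.2 to 25.4, of which 22.9 to 23.8 were mapped, or 90.4% to 94.2%. A count of 0 would allow up to 3 reads, which is 0.126 to 0.131 reads per 1000000 mapped reads (RPM) in these libraries. Every library held reads over both regions. Only these 2 regions were counted, so no wider set of features stands behind the counts of calls. Both regions passed the threshold (100%) against the host in kan1-11 and in Col, and neither did (0%) between the Ctr//AGe groups. Replicate 2 of both Ctr//AGe groups stood apart from its group over AGp, and the fitted ratios of AGp and of AGp per AGe read are therefore also given without it. In bulk flower RNA, fewer cells of a type and less small RNA per cell cannot be told apart.

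Reads over the enhancer were far more abundant in Ctr//AGe flowers than in their hosts, by fitted ratios of 1162 in kan1-11 and 1163 in Col. AGe stood at 1195, 1245 and 1123 RPM in the 3 replicates of kan1-11 Ctr//AGe, and at 1.59, 0.905 and 0.568 RPM in kan1-11. In Col Ctr//AGe it stood at 1202, 1198 and 1182 RPM, against 1.17, 1.01 and 0.890 RPM in Col. The Ctr//AGe libraries lay far above every host library and close to each other. Behind these values were 26099 to 28737 reads over AGe per library of kan1-11 Ctr//AGe and 27234 to 28463 per library of Col Ctr//AGe. The hosts had 13 to 37 reads per kan1-11 library and 21 to 28 per Col library, so the host value carries most of the counting error of the ratio.

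AGe averaged 1187 ± 61.6 RPM in kan1-11 Ctr//AGe and 1.02 ± 0.522 RPM in kan1-11 (SD, n = 3 each). The ratio was 1162 (95% interval 654 to 2064), a log2 change of 10.18 with an adjusted p of 1.91e-22 by edgeR's quasi-likelihood test with Benjamini-Hochberg adjustment. It was 1612 without replicate 1 of kan1-11, the host library with the most AGe reads. In Col Ctr//AGe the mean was 1194 ± 10.9 RPM, against 1.03 ± 0.143 RPM in Col (SD, n = 3 each). Here the ratio was 1163 (656 to 2064), a log2 change of 10.18, with an adjusted p of 1.91e-22 in the same edgeR test. The ratios depend on how the near-empty hosts are handled, since a pseudocount of 1 RPM in limma lowered them to 600.3 in kan1-11 and 591 in Col.

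Set against each other, the Ctr//AGe groups showed no detectable difference in enhancer reads. The ratio of kan1-11 Ctr//AGe to Col Ctr//AGe was 0.994 with an interval of 0.590 to 1.67 (adjusted p = 0.997, edgeR quasi-likelihood). That interval uses the spread shared by all groups of set C. With only these 2 groups in the fit it was 0.914 to 1.08. The change from host to Ctr//AGe also did not differ detectably between genotypes, with a ratio of the ratios of 0.999 (0.443 to 2.25, adjusted p = 0.997, edgeR interaction term).

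**Figure D1:**
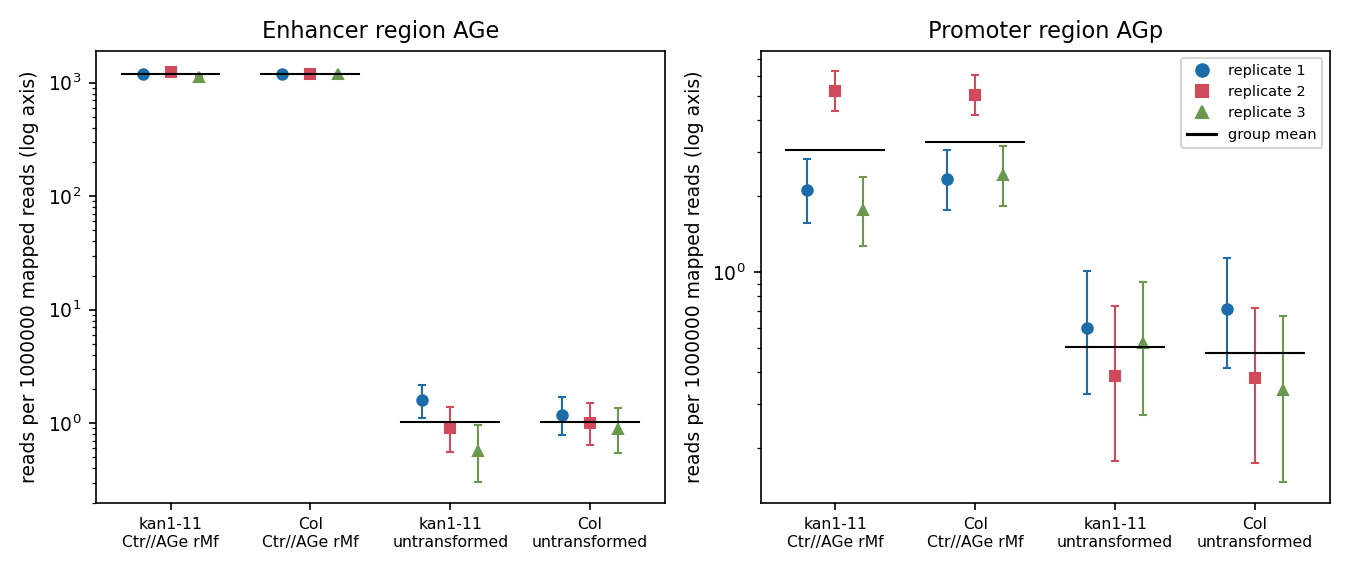
Reads over AGe (left) and AGp (right) in reads per 1000000 mapped reads on log axes, for 3 replicates of kan1-11 Ctr//AGe, Col Ctr//AGe, untransformed kan1-11 and untransformed Col; bars on points are exact 95% Poisson intervals of the read counts and lines are group means. AGe means are 1187 and 1194 RPM with Ctr//AGe against 1.02 and 1.03 RPM in the hosts, while AGp means are 3.04 and 3.27 RPM against 0.505 and 0.477 RPM, with replicate 2 highest in both Ctr//AGe groups.

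Promoter reads were also higher in Ctr//AGe flowers than in their hosts, but by far less, 6.03-fold in kan1-11 and 6.86-fold in Col, and they stayed at a few RPM. AGp stood at 2.12, 5.24 and 1.76 RPM in the 3 replicates of kan1-11 Ctr//AGe, against 0.602, 0.388 and 0.524 RPM in kan1-11. It stood at 2.34, 5.05 and 2.43 RPM in Col Ctr//AGe, against 0.713, 0.380 and 0.339 RPM in Col. Every Ctr//AGe library lay above every host library. The counts were 49, 121 and 41 reads in kan1-11 Ctr//AGe, and 54, 120 and 56 reads in Col Ctr//AGe. The hosts had 14, 9 and 12 reads in kan1-11, and 17, 9 and 8 reads in Col. Host levels differed between sets. Untransformed Col flowers of class Wt in set B held 5.98 ± 1.55 RPM over AGp, above the mean of Col Ctr//AGe here. They held 10.4 ± 1.69 RPM over AGe (SD, n = 3). The ratios to a host, for AGe as for AGp, therefore hold for the hosts of set C only.

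Replicate 2 was the high library in both Ctr//AGe groups. Its 95% Poisson interval was 4.35 to 6.26 RPM in kan1-11 Ctr//AGe, where the other replicates had intervals of 1.57 to 2.80 and 1.27 to 2.39 RPM. In Col Ctr//AGe it was 4.19 to 6.04 RPM, next to 1.76 to 3.06 and 1.84 to 3.16 RPM. The same libraries had the lowest share of reads aligned more than once in their groups. Per 1000000 reads aligned once, AGp still stood highest in replicate 2, at 5.45, 13.0 and 4.52 in kan1-11 Ctr//AGe and at 6.01, 12.2 and 6.51 in Col Ctr//AGe. Why these libraries stood apart was not tested.

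AGp averaged 3.04 ± 1.91 RPM in kan1-11 Ctr//AGe and 0.505 ± 0.109 RPM in kan1-11 (SD, n = 3 each). The ratio was 6.03 (3.18 to 11.4), a log2 change of 2.59 with an adjusted p of 1.86e-06 by edgeR's quasi-likelihood test. It was 3.85 without replicate 2 of kan1-11 Ctr//AGe (adjusted p = 4.14e-04 by edgeR). In Col Ctr//AGe the mean was 3.27 ± 1.54 RPM, against 0.477 ± 0.205 RPM in Col (SD, n = 3 each). The ratio was 6.86 (3.61 to 13.0), a log2 change of 2.78 with an adjusted p of 6.49e-07 in the same edgeR test. Without replicate 2 of both Ctr//AGe groups it was 3.85 in kan1-11 and 4.99 in Col, and both stayed past the threshold of 0.05. A pseudocount of 1 RPM in limma lowered the ratio to 2.51 in kan1-11 and 2.80 in Col.

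Between hosts with the same cassette, no difference in promoter reads was detectable. The AGp ratio of kan1-11 Ctr//AGe to Col Ctr//AGe was 0.928 with an interval of 0.532 to 1.62 (adjusted p = 0.997, edgeR quasi-likelihood). A difference of 1.5-fold upward would lie within that interval. The ratio turned on single libraries, being 0.593 without replicate 2 of kan1-11 Ctr//AGe and 1.28 without replicate 2 of Col Ctr//AGe. Without replicate 2 of both it was 0.814 (0.421 to 1.58). The change from host to Ctr//AGe differed between genotypes by a ratio of 0.879 (0.355 to 2.18, adjusted p = 0.997, edgeR interaction term), by 0.561 without replicate 2 of kan1-11 Ctr//AGe, and by 0.771 without replicate 2 of both Ctr//AGe groups.

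AGp per AGe read sets the promoter reads of a library against its enhancer reads. It does not say where the promoter reads came from, since the cassette may carry a promoter copy. In Ctr//AGe flowers AGp reads were a few for every 1000 AGe reads, while in the hosts they were at least 375 for every 1000. The 3 replicates of kan1-11 Ctr//AGe had 1.78, 4.21 and 1.57 AGp reads per 1000 AGe reads, against 378, 429 and 923 in kan1-11. Those of Col Ctr//AGe had 1.95, 4.22 and 2.06, against 607, 375 and 381 in Col. The 2 kinds of flower did not overlap, and the host values rest on 13 to 37 AGe reads per library.

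Per region length the contrast was much the same. Levels in this comparison are RPM per kb of region. AGe stood at 396 ± 20.5 RPM per kb in kan1-11 Ctr//AGe and 398 ± 3.63 in Col Ctr//AGe, next to 1.45 ± 0.911 and 1.56 ± 0.733 RPM per kb for AGp in the same groups (SD, n = 3 each). The promoter thus held 3.60 ± 2.10 RPM per kb for every 1000 RPM per kb of enhancer in kan1-11 Ctr//AGe, against 824 ± 430 in kan1-11. In Col Ctr//AGe it held 3.91 ± 1.83, against 649 ± 189 in Col. In the hosts AGe had the higher mean density as well, but by far less, with 0.341 ± 0.174 RPM per kb over AGe and 0.240 ± 0.0517 over AGp in kan1-11, and with 0.342 ± 0.0475 and 0.227 ± 0.0976 in Col. AGe was denser than AGp in 5 of the 6 host libraries, the exception being replicate 3 of kan1-11, at 0.189 RPM per kb over AGe and 0.250 over AGp.

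AGp per AGe read was lower in Ctr//AGe flowers than in the host in both genotypes. In kan1-11 the mean was 2.52 ± 1.47 per 1000 AGe reads with Ctr//AGe, against 577 ± 301 without (SD, n = 3 each), and the fitted ratio was 0.00496 (0.00289 to 0.00851). The log2 change was -7.66, with an adjusted p of 3.37e-13 by edgeR's quasi-likelihood test on AGp with AGe reads as library size. In Col the mean was 2.74 ± 1.28 with Ctr//AGe, against 454 ± 132 without (SD, n = 3 each). The fitted ratio in Col was 0.00593 (0.00345 to 0.0102), a log2 change of -7.40 with an adjusted p of 5.68e-13 in the same edgeR test. AGp made up 0.251% ± 0.146 of the reads over the regions in kan1-11 Ctr//AGe and 35.2% ± 11.2 in kan1-11, and 0.273% ± 0.127 in Col Ctr//AGe and 30.9% ± 5.98 in Col. Without replicate 2 of both Ctr//AGe groups the fitted ratio was 0.00338 in kan1-11 and 0.00430 in Col, and both calls were kept.

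The hosts did not differ detectably in this measure under the same cassette. The ratio of kan1-11 Ctr//AGe to Col Ctr//AGe was 0.923 (0.621 to 1.37, adjusted p = 0.678, edgeR quasi-likelihood). Without replicate 2 of kan1-11 Ctr//AGe alone it was 0.609 (0.418 to 0.888) with an adjusted p of 0.0108 by edgeR. Without replicate 2 of both groups it was 0.837 (0.605 to 1.16). A fit of only these 2 groups that paired libraries of the same replicate number gave 0.922 (0.668 to 1.27). This fit was chosen after seeing the data.

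**Figure D2:**
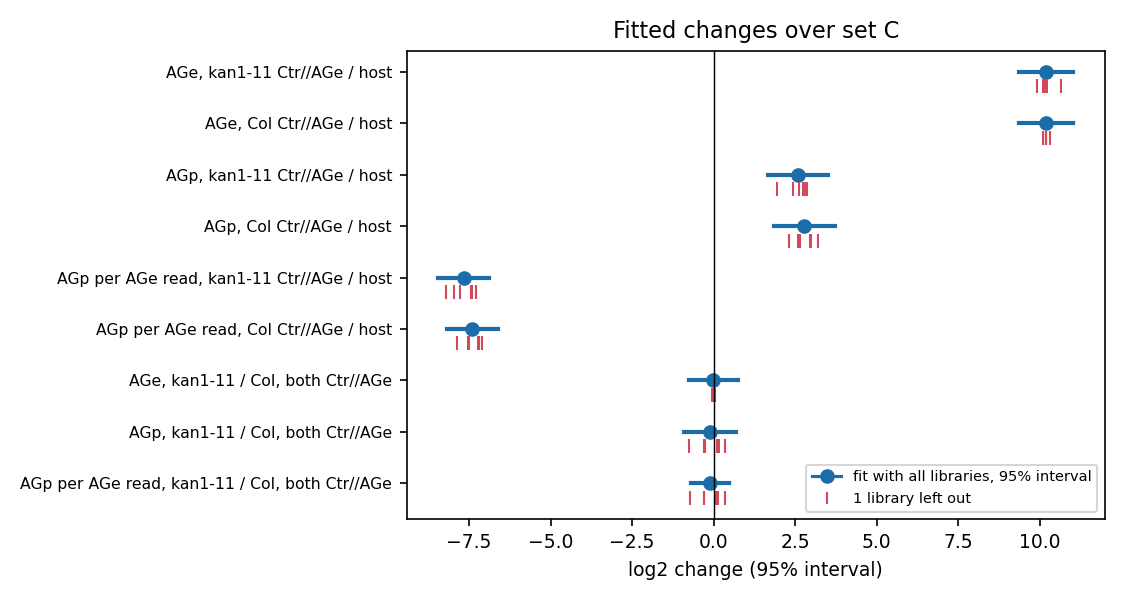
Fitted log2 changes (points) with 95% intervals (bars) from the edgeR fits over all 36 libraries of set C, for AGe, AGp and AGp per AGe read; red ticks are the same change with 1 library left out. Enhancer changes lie at 10.18 in both hosts, promoter changes at 2.59 in kan1-11 and 2.78 in Col, and the 3 changes of kan1-11 against Col under Ctr//AGe lie around 0.

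Other cassette lines of class rMf in the same set held abundant reads over both regions. These carry ARE//AGe in hdp1-1 and hdp2-1, mutants of a pair of transposase-derived proteins known from a complex that counteracts DNA methylation. Host and cassette differ together between them and the Ctr//AGe lines, so these cannot be told apart. The titles also do not say whether ARE//AGe carries a promoter copy, and where the promoter reads of these lines came from was not tested. AGe stood at 790.3, 774 and 734 RPM in hdp1-1 ARE//AGe, and at 2263, 1975 and 2233 RPM in hdp2-1 ARE//AGe. The 6 Ctr//AGe libraries, at 1123 to 1245 RPM, lay between these groups. AGp stood at 482, 432 and 367 RPM in hdp1-1 ARE//AGe, and at 928, 873 and 887 RPM in hdp2-1 ARE//AGe, where no Ctr//AGe library passed 5.24 RPM. The untransformed hdp hosts already held more reads than untransformed kan1-11 and Col. AGe averaged 45.4 ± 16.5 RPM in hdp1-1 and 50.3 ± 31.5 RPM in hdp2-1, and AGp 29.0 ± 9.60 and 29.4 ± 18.4 RPM (SD, n = 3 each).

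Enhancer reads differed far less than promoter reads between the Ctr//AGe lines and the hdp ARE//AGe lines, though the groups did not overlap. Of the 2 regions, 1 passed the threshold against hdp1-1 ARE//AGe (50%) and both did against hdp2-1 ARE//AGe (100%). The AGe ratio to hdp1-1 ARE//AGe was 1.55 (0.920 to 2.61) for kan1-11 Ctr//AGe and 1.56 (0.925 to 2.63) for Col Ctr//AGe, each with an adjusted p of 0.0989 by edgeR's quasi-likelihood test. That call depended on the tool and on the groups in the fit. DESeq2 gave an adjusted p of 0.0294, and edgeR with only the groups compared gave 1.54e-04 for kan1-11 Ctr//AGe (1.40 to 1.72) and 6.00e-05 for Col Ctr//AGe (1.46 to 1.66). The ratio to hdp2-1 ARE//AGe was 0.551 (0.327 to 0.927) for kan1-11 Ctr//AGe and 0.554 (0.329 to 0.932) for Col Ctr//AGe, each with an adjusted p of 0.0375 by edgeR. This call was lost by limma on log2(RPM + 0.1), with an adjusted p of 0.0539. With 1 library left out, the adjusted p by edgeR ran to 0.0790 for either host, and the call was lost without replicate 1 or 3 of hdp2-1 ARE//AGe, replicate 1 or 3 of kan1-11 Ctr//AGe, or any replicate of Col Ctr//AGe.

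For promoter reads per enhancer read, the lines were well apart. The ARE//AGe lines had 609.8, 558 and 500.2 AGp reads per 1000 AGe reads in hdp1-1 and 410.3, 442 and 397 in hdp2-1, which lie in the range of the untransformed hosts. The fitted ratio of kan1-11 Ctr//AGe was 0.00455 to hdp1-1 ARE//AGe (0.00316 to 0.00656) and 0.00608 to hdp2-1 ARE//AGe (0.00422 to 0.00875). That of Col Ctr//AGe was 0.00494 (0.00344 to 0.00708) and 0.00659 (0.00459 to 0.00946) to the same lines. The adjusted p of these 4 comparisons lay between 5.95e-18 and 7.38e-18 by edgeR's quasi-likelihood test. Without replicate 2 of both Ctr//AGe groups the ratios to hdp1-1 ARE//AGe and hdp2-1 ARE//AGe were 0.00301 and 0.00402 for kan1-11 Ctr//AGe, and 0.00360 and 0.00480 for Col Ctr//AGe. AGp alone had ratios of 0.00712 and 0.00767 to hdp1-1 ARE//AGe for kan1-11 Ctr//AGe and Col Ctr//AGe, and of 0.00339 and 0.00366 to hdp2-1 ARE//AGe, with adjusted p of at most 1.25e-18 by edgeR. These were, without replicate 2 of both Ctr//AGe groups, 0.00455 and 0.00559 to hdp1-1 ARE//AGe, and 0.00217 and 0.00266 to hdp2-1 ARE//AGe. Across all of set C, the other 15 cassette libraries had 397 to 622 AGp reads per 1000 AGe reads and the other 9 untransformed libraries had 532 to 699, so the 6 Ctr//AGe libraries were the lowest of the set.

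**Figure D3:**
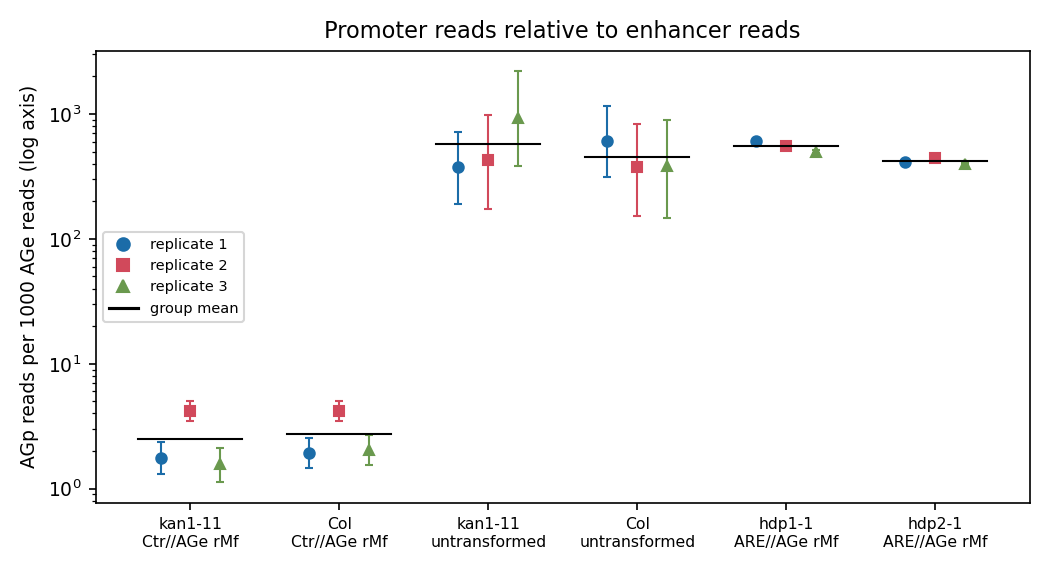
AGp reads per 1000 AGe reads on a log axis for 3 replicates of kan1-11 Ctr//AGe, Col Ctr//AGe, the untransformed hosts kan1-11 and Col, and the ARE//AGe lines of hdp1-1 and hdp2-1 of class rMf; bars on points are 95% Clopper-Pearson intervals of the counts and lines are group means. The Ctr//AGe libraries lie at 1.57 to 4.22 and all other libraries shown at 375 to 923.

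The libraries also differed in a measure that covers all mapped reads and not the AG regions alone. The share of mapped reads that aligned more than once was higher in Ctr//AGe flowers than in their hosts. Reads with several hits come from repeated sequence, such as transposons and ribosomal or other multicopy genes, and the table does not divide them by source. The 3 replicates stood at 61.1%, 59.6% and 61.0% in kan1-11 Ctr//AGe, against 51.0%, 50.5% and 53.7% in kan1-11. They stood at 61.0%, 58.6% and 62.6% in Col Ctr//AGe, against 49.3%, 48.2% and 49.1% in Col. No Ctr//AGe library fell into the range of the hosts.

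The share averaged 60.6% ± 0.817 in kan1-11 Ctr//AGe and 51.7% ± 1.73 in kan1-11, a ratio of 1.17 (1.12 to 1.22) with an adjusted p of 2.30e-07 by edgeR's quasi-likelihood test. It averaged 60.8% ± 2.05 in Col Ctr//AGe and 48.9% ± 0.556 in Col, a ratio of 1.24 (1.19 to 1.30) with an adjusted p of 1.32e-09 in the same edgeR test. Between kan1-11 Ctr//AGe and Col Ctr//AGe the ratio was 0.997 (0.954 to 1.04, adjusted p = 0.892, edgeR). In units of 1000000, reads aligned once numbered 9.12 ± 0.172 in kan1-11 Ctr//AGe against 11.2 ± 0.493 in kan1-11, and 9.14 ± 0.631 in Col Ctr//AGe against 12.1 ± 0.119 in Col (SD, n = 3 each). Reads aligned more than once numbered 14.0 ± 0.224 in kan1-11 Ctr//AGe against 12.0 ± 0.296 in kan1-11, and 14.1 ± 0.266 in Col Ctr//AGe against 11.6 ± 0.169 in Col, in the same units.

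A high share of reads with several hits was not confined to Ctr//AGe lines. The other 15 cassette libraries of set C had 54.9% to 65.8%, a range that holds all 6 Ctr//AGe libraries, and the other 9 untransformed libraries had 50.3% to 55.8%. This share sets how RPM compares with a count per read aligned once. With reads aligned once as library size, the AGe ratio was 1429 in kan1-11 and 1518 in Col, and the AGp ratio was 7.32 in kan1-11 and 8.82 in Col, with each call kept. AGp per AGe read needs no library size and did not depend on this choice.

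**Figure D4:**
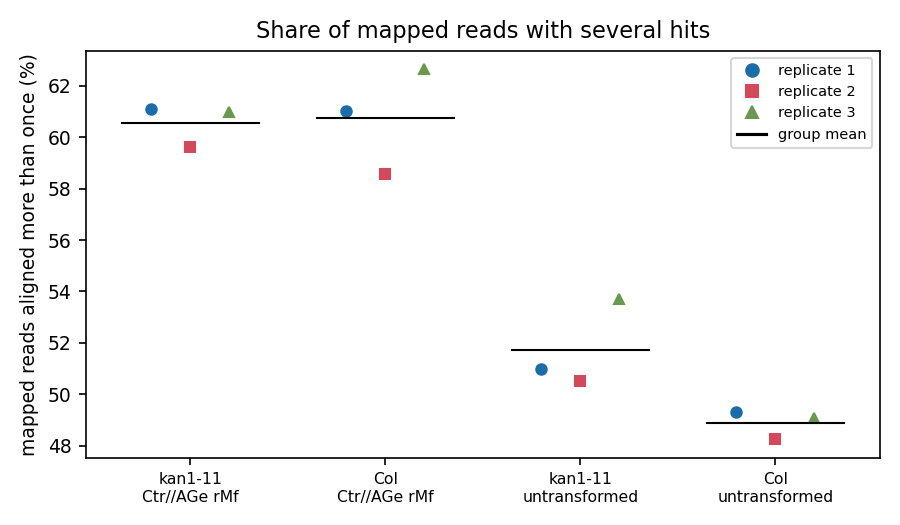
Share of mapped reads that aligned more than once, in percent on an axis that begins above 0, for 3 replicates of kan1-11 Ctr//AGe, Col Ctr//AGe, untransformed kan1-11 and untransformed Col; lines are group means. The Ctr//AGe libraries lie at 58.6% to 62.6% and the host libraries at 48.2% to 53.7%.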

How the data were processed

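Small RNA libraries of set C were built with an Illumina TruSeq kit, per the labels' protocols. Reads were aligned to TAIR10 with Bowtie and counted with HTSeq 0.13.5, per the submitters' processing notes. How reads were trimmed or selected by size, and how those with several hits were counted, is not given in the sources used here. The authors deposited read counts per library (total, aligned once, aligned more than once, mapped, AGe, AGp), an alignment rate in percent, and RPM relative to mapped reads, per the file headers. The headers name the second region AG promoter or M2. M2 is not explained, and the region is called AGp here.

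Counts were tested with edgeR 4.0.16 in R 4.3.3 by two-sided quasi-likelihood F tests in a single fit of all 36 libraries of set C with a mean per group, mapped reads as library size and a common dispersion, since only 2 regions were counted. The groups share 1 estimate of spread, and intervals are 95% intervals of the fit. AGp per AGe read used AGe reads as library size. These enter the fit as known values, so the counting error of the few AGe reads in a host library is not modelled. Adjusted p are Benjamini-Hochberg values over 8 tests of level, 8 against the hdp lines, 7 of AGp per AGe read and 3 of reads aligned more than once, with a threshold of 0.05. As only 2 regions were measured, each could be named. The fits were checked on a small number of simulated tables. Unchanged regions passed in them somewhat more often than the threshold should allow, and the tables were too few to fix that rate. Alternatives used DESeq2 1.42.0, limma 3.58.1, other library sizes, fewer groups and left-out libraries. Genome words and motifs were searched with Python 3.11.15.

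Within groups, all 12 pairs of libraries differed over 5 classes of reads by chi-square (smallest value 1026), so no library was entered again under another number. At this depth the value cannot tell whether libraries were made from the same RNA. Replicate 1 of kan1-11 Ctr//AGe and replicate 1 of Col Ctr//AGe differed by 1125, less than the closest pair within either of these groups (3806). Deviations from the group mean over 4 measures correlated at 0.999, 0.992 and 0.966 between same-numbered kan1-11 Ctr//AGe and Col Ctr//AGe libraries. The labels do not state a pairing. Replicate 3 of kan1-11 Ctr//AGe correlated at 0.985 with replicate 1 of Col Ctr//AGe, above its value with replicate 3. Replicate 1 of kan1-11 Ctr//AGe reached 0.967 with replicate 3 of Col Ctr//AGe. The correlations therefore cannot decide whether same-numbered libraries are partners. Poisson and Clopper-Pearson intervals cover counting error only, since no molecular identifiers are given. Replicates are pools of lines, and whether lines recur between pools is not stated, so p-values measure the spread between these samples. The groups, comparisons and alternatives were chosen with earlier results of these data known.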

Additional observations from a re-analysis of the deposited data

How the results depend on the processing

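Apart from exact permutation tests, 416 alternative values were computed for 26 results. Of these, 12 lost the call, 5 gained it and 0 reversed a call. The other 399 kept their side of the threshold or, where no test was run, moved by less than the spread between replicates. Results short of the threshold could change sign and still count among the 399. The AGp log2 change of kan1-11 over Col Ctr//AGe did so, running from -0.75 to 0.35. Exact permutation tests of 3 against 3 libraries gave p = 0.1 for every called difference, the smallest that design allows. For AGe against hdp1-1 ARE//AGe, DESeq2 gave log2 changes of 0.64 (Col Ctr//AGe) and 0.63 (kan1-11 Ctr//AGe), now past the threshold, and a fit of only the groups compared gave the same 0.64 and 0.63, also past it. For AGe against hdp2-1 ARE//AGe, limma on log2(RPM + 0.1) gave -0.85 (Col) and -0.86 (kan1-11), short of the threshold, and so did leaving out replicate 2 of both Ctr//AGe groups, an alternative chosen after seeing the data, at -0.86 in Col. With 1 library left out, that log2 change ran between -0.91 and -0.82 in Col Ctr//AGe and between -0.92 and -0.82 in kan1-11 Ctr//AGe, and AGp per AGe read of kan1-11 over Col Ctr//AGe ran between -0.72 and 0.35. The replicate block changed no call and gave ratios of 5.77 in kan1-11 and 6.65 in Col for AGp over the host. Same-numbered Ctr//AGe and host libraries did not deviate together throughout. Their deviations correlated at -0.0647, -0.970 and -0.218 in kan1-11 and at -0.947, -0.950 and 0.919 in Col. The block with only the 2 Ctr//AGe groups, also chosen after seeing the data, gave AGp ratios of 0.926 (0.702 to 1.22). AGp as a share of the reads over both regions gave a ratio over the host of 0.00755 in kan1-11 and 0.00867 in Col. Host levels rest on 8 to 37 reads per region and library, which limits every ratio to a host, and 3 libraries per group limit the AGp comparison of the hosts under Ctr//AGe.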

Other observations

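Ctr//AGe was also carried by 3 groups outside set C, whose values are given side by side without a test because set, kit or host differ. In set A, built with another kit, Col Ctr//AGe flowers of class Wt held 494 ± 20.0 RPM over AGe and 0.325 ± 0.151 RPM over AGp (SD, n = 3), with 15 AGp reads in the 3 libraries together. Flowers of class Wt thus also held abundant enhancer reads under this cassette in Col, with 0.655 ± 0.300 AGp reads per 1000 AGe reads and 51.3% ± 1.08 of mapped reads aligned more than once. In set B, met1-1 Ctr//AGe flowers of class rMf, which lack full function of the maintenance DNA methyltransferase MET1, held 4056 ± 85.1 RPM over AGe and 25.5 ± 16.1 RPM over AGp. Their 3 libraries had 11.1, 4.04 and 3.85 AGp reads per 1000 AGe reads. In the same set, ddm1-1 Ctr//AGe flowers of class rMf, mutant in the chromatin remodeller DDM1, held 800.1 ± 25.6 RPM over AGe and 6.82 ± 2.64 RPM over AGp, with 12.1, 7.10 and 6.28 AGp reads per 1000 AGe reads. In all 15 Ctr//AGe libraries of the series AGp reads were below 13 per 1000 AGe reads. Low values were not particular to Ctr//AGe. In set A, flowers with the cassette labelled AGe had mean values of 0.126 ± 0.0529 (M317, sMf) and 1.80 ± 2.64 (M317, rMf) in the same units. Those of M318 were 0.213 ± 0.140 (sMf) and 0.612 ± 0.117 (rMf) (SD, n = 3 each). The M317 rMf libraries stood at 0.215, 0.326 and 4.85, so 1 library sets that mean. In the M318 rMf libraries only 40.7% to 47.3% of reads were mapped.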
